A study of Mus musculus with 12 samples.

Results

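The gene products described here set how neurons fire and how they read and clear Ca2+. They comprise ion channels and the proteins that release, sense, buffer and pump Ca2+. Members were chosen by gene symbol alone, from the families Kcn, Cacn, Scn, Hcn, Clcn, Clic, Trp, Ano, Stim, Orai, Itpr, Ryr, Atp2a to Atp2c, Calm, Calb, Ncs1, Hpca, Vsnl and Kchip, and 63 of the 3366 named 5′ UTRs in the deposited tables belonged to them (1.87%). The measurement is eIF4G2 CLIP, in which ultraviolet light crosslinks the translation initiation factor eIF4G2 to the RNA it touches, the complexes are immunoprecipitated, and the attached RNA fragments are sequenced and counted as tags on 5′ UTRs. The cells were mouse primary cortical neurons, which fire and take up Ca2+ through many of these channels, and each replicate came from 3 dishes.

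Neurons of the resting group were compared with depolarized neurons. The latter were incubated in tetrodotoxin and DL-AP5 for 2 h and then given 55 mM KCl for 1 h. They recovered for 30 min in fresh medium that, by the study's methods, again held both blockers. No silencing is recorded for the resting group, so KCl and the blockers cannot be told apart. Both groups received cycloheximide for 2 min before harvest and were crosslinked on ice, first at 400 and then at 200 mJ/cm2. The labels name 6 libraries per condition, the series text 3 replicates and the study 5. The file for depolarized replicate 5 repeated every count of resting replicate 5 under a resting heading. The pair, which differed by less than sampling noise, entered once as resting replicate 5, and this left 6 resting and 5 depolarized libraries. The resting libraries held 306 to 3224 tags and the depolarized libraries 264 to 5240, and 3 tags, the limit that a count of 0 allows, correspond to 573 CPM (a count scaled to its library's total) at the greatest depth and 11364 CPM at the lowest. No RNA input was analysed here, so the abundance of an RNA and its contact with eIF4G2 cannot be told apart, nor can fewer cells of a type and less RNA per cell.

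As background, K+ channels repolarize the membrane and hold it at rest, Na+ channels carry the upstroke of the action potential, and voltage-gated Ca2+ channels turn spikes into a Ca2+ signal. STIM proteins sense the Ca2+ content of the endoplasmic reticulum and open store-operated channels in the plasma membrane, while inositol trisphosphate and ryanodine receptors release the stored Ca2+. SERCA, PMCA and SPCA pumps clear Ca2+ from the cytosol, and Ca2+ sensor proteins pass its signal on. eIF4G2 resembles eIF4G but lacks the part that binds the cap-binding protein eIF4E, and it is known for initiation that does not depend on that protein.

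The study examined the hexamer CGCGGC as a predicted eIF4G2 motif, and reported it as the most crosslinked motif in its eIF4G2 CLIP. The 5′ UTRs of 5 of the 8 most tagged members that hold it are therefore shown first. Sequences are from GENCODE M21 transcripts (GRCm38, the same assembly as mm10). Each line gives the 30 bases around a match on the RNA strand, 5′ to 3′, with the hexamer in capitals.

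Atp2a2, chr5:122501979-122502008, minus strand: gcctgcgctgccCGCGGCcggctggcagct
Atp2a2, chr5:122501943-122501972, minus strand: gcgacccacactCGCGGCggggcgggaggc
Atp2a2, chr5:122501743-122501772, minus strand: gtggcacgagccCGCGGCcggagtgcgagg
Kcna1, chr6:126644716-126644745, minus strand: ctgctgaaggctCGCGGCgcgccgcggaga
Stim2, chr5:53998511-53998540, plus strand: ggggggatgcgcCGCGGCggcggcgcgggc
Stim2, chr5:53998576-53998605, plus strand: tcccggtgtcgcCGCGGCagctgcgcgggt
Stim2, chr5:53998679-53998708, plus strand: ggaaccaatgaaCGCGGCggcgagccgagc
Ano8, chr8:71485871-71485900, minus strand: gcccgggcgtccCGCGGCccctaacctgcc
Kcnc1, chr7:46396550-46396579, plus strand: aggcagcagcggCGCGGCggcggcggtggc

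All of these windows lie in an exon, in the 5′ UTR. Most sit in stretches of G and C. The match of Ano8 ended closest to the start codon, with 23 bases between the hexamer and the coding sequence, whereas those of Kcna1 and Kcnc1 lay 1003 and 1110 bases upstream. The deposited counts cover a whole 5′ UTR and hold no crosslinked positions, so it was not tested whether a tag fell on a hexamer. The shares of 5′ UTRs and tags given below are thus a different measure from the study's share of peaks.

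**Figure D1:**
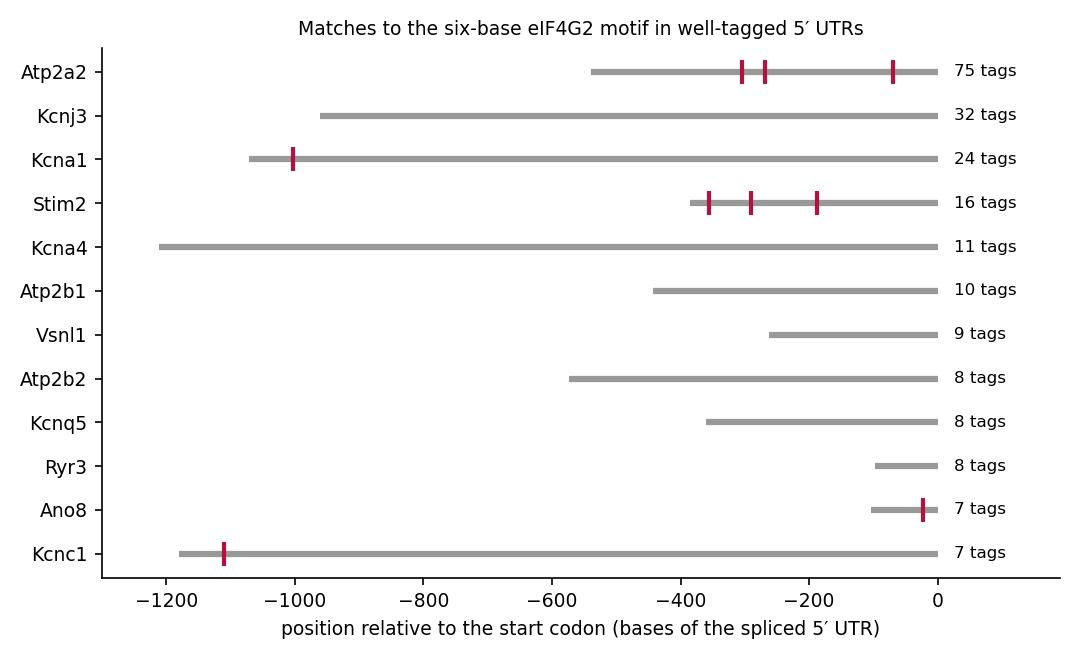
Bars show the spliced 5′ UTRs of 12 of the 15 channel and Ca2+ handling genes with the most tags, drawn to scale in bases upstream of the start codon, and red marks show matches to the hexamer. Atp2a2 and Stim2 hold 3 matches each, Kcna1, Ano8 and Kcnc1 hold 1, and Kcnj3, with 32 tags, holds none.

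Of the 63 members, 21 held CGCGGC in the reference 5′ UTR (33.3%), against 36.8% of the 3316 listed 5′ UTRs with a reference sequence, searched on the RNA strand with overlapping matches counted. These 21 members carried 234 of the members' 397 tags (58.9%), against 46.5% over all listed 5′ UTRs. Atp2a2 alone gave 75 of the 234 tags. In length and base composition the members were close to the rest of the list. Their median 5′ UTR was 340 bases long with 65.8% GC, against 306.5 bases and 65.9% GC, and an upstream ATG was present in 44 members (69.8%, against 66.6%). An upstream reading frame that closes before the coding sequence was present in 39 (61.9%, against 60.9%). Kcna4 had the most, with 18 upstream ATGs in 1212 bases, while Atp2a2 and Ryr3, among the most tagged, had none.

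The tags on these genes were few and unevenly spread. The members carried 397 of 15767 tags (2.52%), with a median of 3 tags per member against 2 over all listed 5′ UTRs. Of the 63, 18 had 1 tag (28.6%, against 40.8% of all), 35 had 3 or fewer and 7 had at least 10 (11.1%, against 9.42%). Atp2a2 alone held 18.9% of the members' tags, and the 7 members with at least 10 tags 56.4%. Tags were seen in both conditions for 29 members (46.0%, against 34.9% of all), at rest only for 17 (27.0%, against 27.2%) and after depolarization only for 17 (27.0%, against 35.4%). A difference on a member with 3 tags or fewer rests on very few counts.

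Per base of 5′ UTR, a different order emerged. On the scale of tags per 100 bases of reference 5′ UTR, Atp2a2 stood at 13.9. Below it came Kcnt1 with 12.5, from 1 tag on 8 bases, Ryr3 with 8.25, Cacna1d with 7.27 and Ano8 with 6.73, all of which have short 5′ UTRs and fewer than 10 tags. Kcnj3 (3.33), Kcna1 (2.24) and Kcna4 (0.908), which rank high by tags, have 5′ UTRs of 961, 1072 and 1212 bases. The median was 0.830 over the members and 0.700 over all listed 5′ UTRs. A level from fewer than 10 tags is imprecise, and neighbours in that part of the order are not separated by their counts.

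As a share of each library, the members' tags did not separate the conditions. The resting libraries gave 1.65% at the lowest, 2.65% at the median and 3.23% at the highest, with a mean of 2.58% ± 0.536 (SD, n = 6). The depolarized libraries gave 2.33%, 2.20%, 2.71%, 2.55% and 1.14% for replicates 1, 2, 3, 4 and 6, with a mean of 2.18% ± 0.618 (SD, n = 5). The ranges overlap, and the difference of -0.40 percentage points lies within the SD of either group. Depolarized replicate 6, the lowest, rests on 3 of 264 tags, and its Wilson 95% interval of 0.387% to 3.29% takes in the mean of both groups. The labels say that the resting and depolarized samples of a replicate were pooled after reverse transcription. Within those replicate numbers, the depolarized library had the lower share in replicates 1, 2 and 6 and the higher in replicates 3 and 4. Without Atp2a2, the mean shares were 1.92% ± 0.604 (SD, n = 6) and 1.84% ± 0.455 (SD, n = 5), a difference of -0.077 percentage points. Over summed tags the members held 2.70% at rest and 2.39% after depolarization, and without Stim2 and Kcnj3, chosen after their values were seen, that order turned, to 2.15% and 2.26%. The mean shares per library without both genes kept their order, at 2.07% ± 0.544 (SD, n = 6) and 1.88% ± 0.874 (SD, n = 5).

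**Figure D2:**
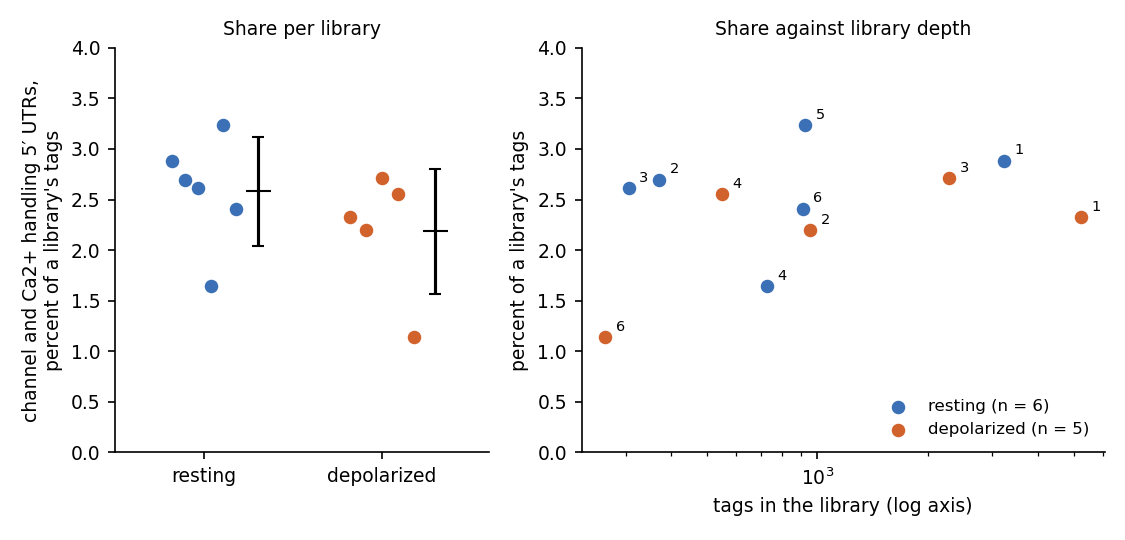
The left panel shows the percent of each library's tags that fell on channel and Ca2+ handling 5′ UTRs, with a point per library and a bar for the mean with its SD. The right panel sets the same shares against the library's tags on a log axis, with points labelled by replicate number. Resting libraries span 1.65% to 3.23% and depolarized libraries 1.14% to 2.71%, and the lowest point is the shallowest library.

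Both of the following tests asked which 5′ UTRs changed their tags with depolarization. edgeR's quasi-likelihood test, which weighs the spread between libraries, was run on the 317 5′ UTRs with at least 10 tags. The pooled binomial test took the study's depth scaling, pseudocount and threshold of P below 0.2, and compared summed tags. The study does not state how replicates were combined, so the summing was a choice made here. By edgeR, 0 of the 7 members tested were called in either direction at a Benjamini-Hochberg adjusted P below 0.05, and 0 were at an unadjusted P below 0.05. Over all 317, 0% were called higher and 0% lower, with 24 and 1 at an unadjusted P below 0.05. DESeq2 also called 0 of the 7 members and 0 of the 317 5′ UTRs, of which 2 and 1 were higher and lower at an unadjusted P below 0.05 and 2 had no adjusted P. The common dispersion was 1.00, so libraries of a condition varied far more than counting alone gives.

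In the pooled test, 3 members were called with more tags after depolarization (4.76%, against a background of 5.21% of the 3280 5′ UTRs with a tag) and 5 with fewer (7.94%, against 4.51%). Atp2b2 and Scn3b were among those with more, and Stim2, Kcnj3, Kcna4, Kcnip2 and Kcnk10 fewer. That background is unlike the members, since 72.2% of all listed 5′ UTRs but 55.6% of members had 3 tags or fewer. Among those with at least 4 tags, 3 of 28 members were called higher and 5 lower, against 18.3% and 10.6% of 935. With at least 10 tags it was 14.3% and 42.9% of 7 members, against 33.8% and 12.3% of 317. Whether members differ from the rest was not tested. Of the 5 lower calls 4 rest on 16 or fewer tags, and after adjustment over all 3280 none of the 8 stayed below 0.05. The median pooled change was 0.06 on the log2 scale over the members and 0.33 over all 5′ UTRs with a tag. Summed tags give the deepest libraries the most weight, and the same question was also asked within replicate numbers. The test used for this leaves out resting replicate 5, which has no partner. It too counts single tags, holds no spread between libraries and gives the deepest replicate the most weight, so it does not remove this limit. By an exact Mantel-Haenszel test at P below 0.2, 0 members had more tags and 9 of the 60 members with tags in the paired libraries had fewer, against 4.39% and 10.1% of 3190 5′ UTRs. The 9 were Stim2, Kcnj3, Kcna4 and Kcnip2 from above, with Kcna1, Kcnj9, Kcnj11, Kcnk4 and Hpcal1.

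**Figure D3:**
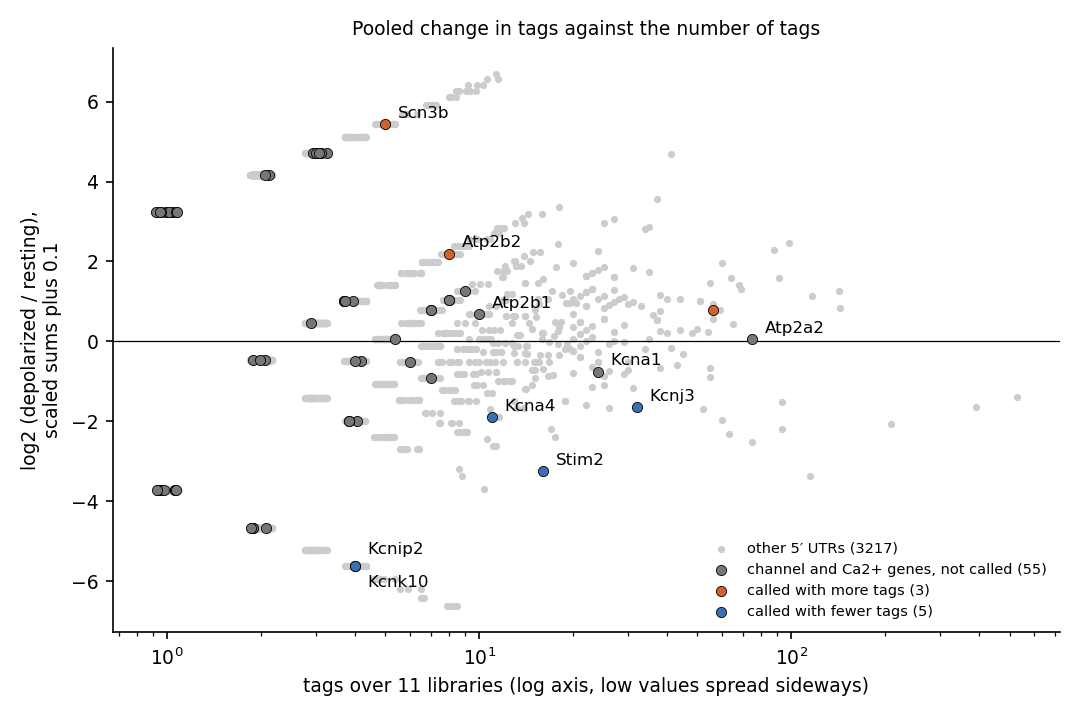
Each point is a 5′ UTR, placed by its tags over the 11 libraries (log axis) and by the log2 ratio of depth-scaled depolarized to resting tags plus 0.1, with 63 channel and Ca2+ handling genes in front of the other 5′ UTRs in grey. The 3 members called with more tags are orange and the 5 called with fewer are blue. At the left, points form bands because few tags allow few ratios, and those at the top and bottom have tags in one condition only.

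STIM2 is an endoplasmic reticulum Ca2+ sensor that answers to small falls in stored Ca2+. Stim2 (chromosome 5, 53998499 to 54121057, plus strand) gave 3, 0, 0, 1, 5 and 5 tags at rest (replicates 1 to 6) and 0, 0, 0, 1 and 1 after depolarization (replicates 1, 2, 3, 4 and 6). Tags were thus present in 4 of 6 resting and 2 of 5 depolarized libraries, and the 3 deepest depolarized libraries had none. The scaled ratio of depolarized to resting tags was 0.0994 (95% counting interval 0.0110 to 0.433; pooled exact binomial test, P = 0.000729, adjusted P = 0.0919). Per library, however, the levels overlapped, at 2194 ± 2564 CPM (SD, n = 6) and 1122 ± 1686 CPM (SD, n = 5; two-sided exact permutation test, P = 0.437). The edgeR log2 fold change was -2.12 (SE 1.20; edgeR, adjusted P = 0.630), or -1.42 with the replicate number as a block (edgeR, adjusted P = 0.997). The pooled log2 change was -3.26, or -2.09 without depolarized replicate 1 (pooled exact binomial test, P = 0.0574). In replicates 4 to 6 alone it was -0.78 (pooled exact binomial test, P = 0.549), and the exact Mantel-Haenszel P was 0.199. A tag weighs more in a shallow library, and the depolarized tags of Stim2 came from the 2 shallowest of that condition, at 1821 and 3788 CPM. The smallest P value that the 462 arrangements of 11 libraries can give is 0.00433.

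Among the other genes of Ca2+ stores, Ryr3, a ryanodine receptor, had 2 resting tags, both in replicate 1, and 6 depolarized tags in replicates 1, 3 and 4. Itpr2, an inositol trisphosphate receptor, had 2 tags, both at rest. Stim1, the other STIM sensor, had 1 resting tag, and Ryr2 had 1 depolarized tag. The 5 genes together held 19 resting and 9 depolarized tags, of which Stim2 gave 14 and 2. No Orai gene, the channel that STIM opens, was among the listed 5′ UTRs.

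The Ca2+ pumps were the family with the most tags, 37 at rest and 61 after depolarization over 5 genes, or 0.572% and 0.656% of all tags. The mean share per library went the other way, at 0.761% ± 0.474 (SD, n = 6) and 0.590% ± 0.143 (SD, n = 5). Atp2a2 encodes the SERCA pump that refills the endoplasmic reticulum (chromosome 5, 122453513 to 122502225, minus strand). Its resting libraries gave 9, 3, 4, 2, 5 and 7 tags in replicate order, and its depolarized libraries 32, 2, 8, 3 and 0. It was the only member seen in every resting library, and was absent only from the shallowest depolarized library. The ratio of summed tags was near 1, at 1.04 (95% counting interval 0.644 to 1.72; pooled exact binomial test, P = 1). Of the 45 depolarized tags, 32 lay in depolarized replicate 1. Without both libraries of replicate 1, a setting chosen after seeing the data, the pooled test called Atp2a2 lower, as it did 2.10% of 2048 5′ UTRs. The mean per library was 6625 ± 3901 CPM (SD, n = 6) at rest and 3432 ± 2493 CPM (SD, n = 5) in depolarized neurons (two-sided exact permutation test, P = 0.160). The difference exceeds the depolarized SD but not the resting SD, and the libraries' ranges overlap. The edgeR log2 fold change was -0.14 (SE 1.08; edgeR, adjusted P = 0.995), so the sum, the mean and the fit do not give a common direction.

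The plasma membrane pumps PMCA1 and PMCA2, which extrude Ca2+ from the cell, are encoded by Atp2b1 and Atp2b2. Atp2b1 had 1, 0, 1, 0, 1 and 0 resting tags and 4, 0, 2, 1 and 0 depolarized tags, a scaled ratio of 1.62 (95% counting interval 0.371 to 9.73). Its edgeR log2 fold change was 0.74 (SE 1.18; edgeR, adjusted P = 0.908), while its mean level per library was 776 ± 1290 CPM at rest (SD, n = 6) and 692 ± 754 CPM after depolarization (SD, n = 5; exact permutation test, P = 0.935). Atp2b2 had 1 resting tag, in replicate 1, and 7 depolarized tags, 3 in replicate 2 and 4 in replicate 3, which gave a ratio of 4.87 (95% counting interval 0.626 to 219.6; pooled exact binomial test, P = 0.125, adjusted P = 1). The deepest library, depolarized replicate 1, had no Atp2b2 tag, and without replicate 2 or replicate 3 of the depolarized libraries the call was lost, as it was within replicate numbers (exact Mantel-Haenszel test, P = 1). The other 2 pumps were Atp2c1, a pump of the Golgi, with 3 resting tags and 1 depolarized tag, and Atp2b4 with 1 depolarized tag.

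The neuronal Ca2+ sensor family and the Ca2+ buffers gave smaller counts. Vsnl1, which encodes visinin-like protein, had 1 tag in each of resting replicates 1 and 4, and 3 and 4 tags in depolarized replicates 1 and 3 (pooled exact binomial test, P = 0.289). Hpcal1 and Hpcal4, which encode hippocalcin-like proteins, had 4 and 2 tags, and Calb2, the buffer calretinin, had 1. Calm3 had 3 tags, all in depolarized replicate 1. All 6 sensors and buffers together held 23 resting and 52 depolarized tags. As a share per library, the family spanned 0% to 1.08% at rest and 0% to 0.830% after depolarization, so the ranges overlapped almost entirely.

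The 30 K+ channel genes held 76 of 6471 resting tags (1.17%) and 67 of 9296 depolarized tags (0.721%). Per library this was 0.941% ± 0.383 (SD, n = 6) and 0.662% ± 0.158 (SD, n = 5), with ranges of 0.539% to 1.49% and 0.379% to 0.743% that overlap. In contrast, the 16 genes of stores, pumps, sensors and buffers held 79 resting and 122 depolarized tags, or 1.22% and 1.31%. Per library these were 1.34% ± 0.460 (SD, n = 6) and 1.18% ± 0.310 (SD, n = 5). The difference between the K+ channels and the Ca2+ handling genes in direction of their summed tags was not tested.

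**Figure D4:**
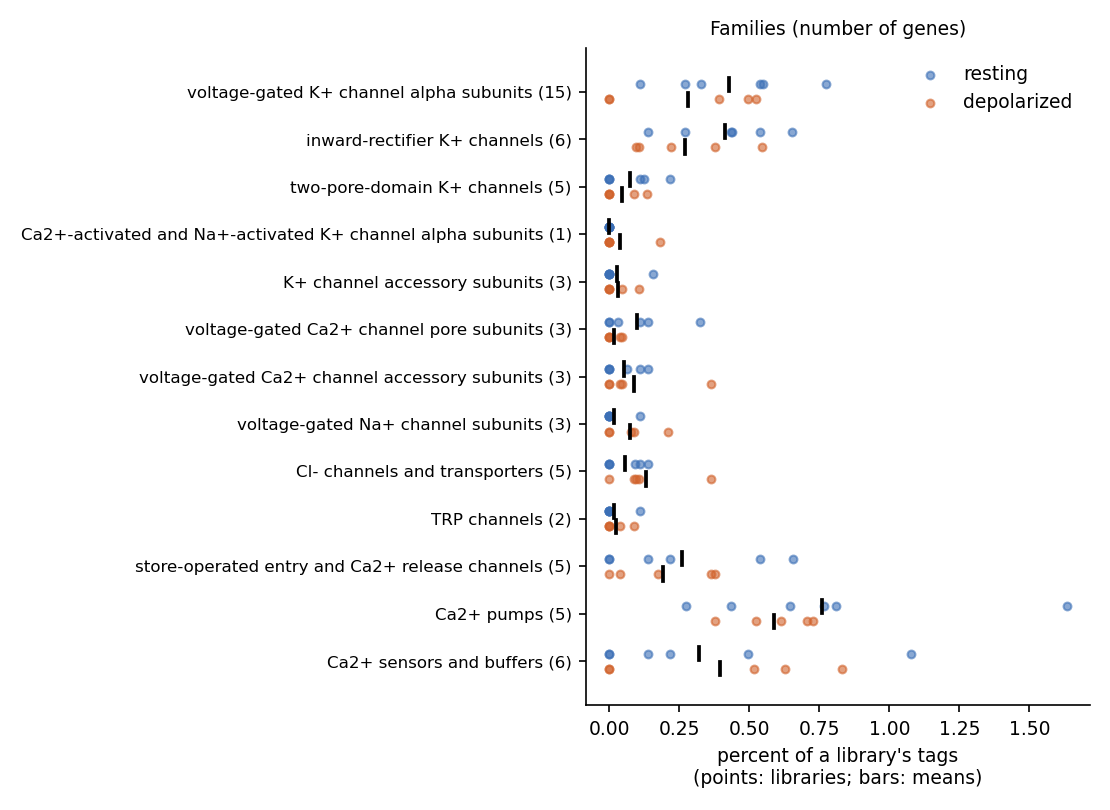
Rows are 13 of the 14 families into which the members were sorted, with the number of genes in brackets, and the axis is the percent of a library's tags. Points are libraries (6 resting, 5 depolarized) and black bars are means over libraries. The points of both conditions overlap in every family with tags in both, and the pumps, voltage-gated K+ channels, inward rectifiers, sensors and store genes hold most of the tags.

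Inward-rectifier K+ channels of the GIRK type open when G protein subunits are released by receptors, and so slow firing. Kcnj3 encodes GIRK1 (chromosome 2, 55435970 to 55598145, plus strand). Its resting libraries gave 11, 1, 0, 1, 5 and 4 tags and its depolarized libraries 5, 1, 1, 2 and 1. Tags were found in 10 of the 11 libraries, with resting replicates 1, 5 and 6 and depolarized replicate 1 the highest by count. The scaled ratio was 0.316 (95% counting interval 0.134 to 0.696; pooled exact binomial test, P = 0.00188, adjusted P = 0.178). Across libraries the levels were 2875 ± 1971 CPM (SD, n = 6) and 1974 ± 1608 CPM (SD, n = 5), a difference within the spread (two-sided exact permutation test, P = 0.442). The edgeR log2 fold change was -0.96 (SE 1.03; edgeR, adjusted P = 0.862), and within replicate numbers the exact Mantel-Haenszel P was 0.0642. In replicates 4 to 6 alone the pooled log2 change was -0.08 (pooled exact binomial test, P = 1). The Kcnj3 5′ UTR overlaps the noncoding gene Gm26794 on the opposite strand, and whether the counting used strand is not given in the sources used here, so its tags are uncertain.

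Kcnj9, which encodes the GIRK3 subunit (chromosome 1, 172320501 to 172329318, minus strand), had 2 tags, both in resting replicate 1, and none in the other 10 libraries. Its depolarized count of 0 allows up to 3 tags, so no fold change can be given. The pooled exact binomial test gave P = 0.5 and the exact Mantel-Haenszel test P = 0.145, below its threshold of 0.2, from these 2 tags. The Kcnj9 5′ UTR of 313 bases holds 3 upstream ATGs, of which 2 open frames that close before the coding sequence and 1 overlaps it, and it has no CGCGGC. Kcnj11, the ATP-sensitive channel subunit, had 2 tags in resting replicate 3 and 3 in depolarized replicate 3, and none elsewhere. Kcnj2 had 1 resting tag, and Kcnj4 and Kcnj6, another GIRK subunit, had 1 depolarized tag each. The 6 inward rectifiers together had 27 resting and 15 depolarized tags, and 5 and 5 of them without Kcnj3.

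Voltage-gated K+ channel subunits were the largest family by genes, with 15 members, 37 resting and 40 depolarized tags. Kcna1 encodes a Shaker-type subunit of axons (chromosome 6, 126640397 to 126646384, minus strand). It had 10, 0, 1, 0, 2 and 0 resting tags and 8, 0, 3, 0 and 0 depolarized tags, a ratio of 0.589 (95% counting interval 0.239 to 1.42; pooled exact binomial test, P = 0.230). Its edgeR log2 fold change was -0.59 (SE 1.02; edgeR, adjusted P = 0.908), and the exact Mantel-Haenszel P was 0.105. Kcna4, a Shaker-type subunit that carries fast, inactivating current (chromosome 2, 107290639 to 107298502, plus strand), had 8 tags in resting replicate 1, 1 in depolarized replicate 1 and 2 in depolarized replicate 3. The other 8 libraries had none. The ratio was 0.261 (95% counting interval 0.0446 to 1.09; pooled exact binomial test, P = 0.0923, adjusted P = 1). On the log2 scale edgeR gave a change of -1.05 (SE 1.16; edgeR, adjusted P = 0.862). Within replicate numbers the log2 odds ratio was -2.61 (exact Mantel-Haenszel test, P = 0.00703). All of its resting tags came from 1 library, and without that library the pooled direction turned. Without depolarized replicate 1 the exact P was 0.344.

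The remaining voltage-gated subunits had at most 8 tags each. Kcnq5, which carries M current, had 2 resting and 6 depolarized tags over 5 libraries, and its 5′ UTR overlaps a noncoding gene on the opposite strand. Kcnc1, a channel of fast-spiking neurons, had 2 resting and 5 depolarized tags over 5 libraries. Kcna6 and Kcnd3 had 4 tags each, and Kcna2, Kcna3, Kcnh1 and Kcnh5 had 2. Kcnd2, Kcnf1 and Kcnh7 had 1. None of these passed the pooled test.

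Background leak is carried by two-pore-domain K+ channels, of which 5 were listed with 7 resting and 9 depolarized tags. Kcnk10 had 1, 2 and 1 tags in resting replicates 1, 5 and 6 and none after depolarization, at least 1.92-fold lower against a limit of 3 counts over the group (pooled exact binomial test, P = 0.0625, adjusted P = 1). This call was lost without resting replicate 5 or without depolarized replicate 1 (P = 0.25 in each exact test). It was also lost within replicate numbers (exact Mantel-Haenszel test, P = 0.434), where resting replicate 5 has no partner. With all 12 libraries as labelled P was 0.453 (exact test), but there the 2 tags of resting replicate 5 count in both conditions. Kcnk3 had 1 resting and 3 depolarized tags, Kcnk1 and Kcnk12 had 3 depolarized tags each, and Kcnk4 had 2 resting tags. Kcnip2, which encodes an accessory subunit of transient K+ channels that binds Ca2+, had 4 tags, all in resting replicate 1, also at least 1.92-fold lower after depolarization (pooled exact binomial test, P = 0.0625, adjusted P = 1). Since all 4 tags came from 1 library, this call rests on it, and it was also lost without depolarized replicate 1 (exact test, P = 0.25). The exact Mantel-Haenszel P was 0.0210. Kcnip1 had 1 tag in each condition, and Kcnmb2, an accessory subunit of Ca2+-activated channels, and Kcnt1, a Na+-activated channel, had 1 depolarized tag each.

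**Figure D5:**
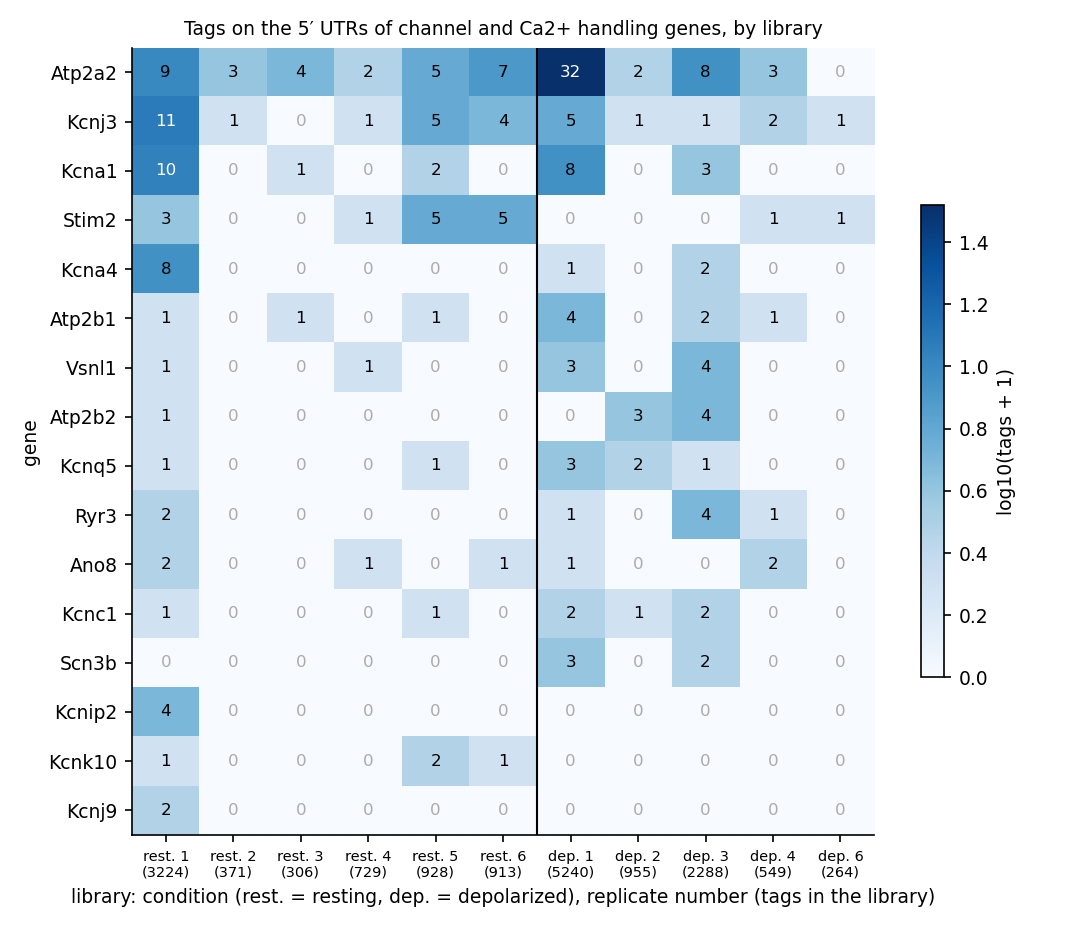
Cells give the tags on the 5′ UTRs of 16 genes (rows) in each of the 11 libraries (columns), shaded by log10 of the tags plus 1, with each library's total under its name. Resting libraries stand left of the line and depolarized libraries right. Atp2a2 and Kcnj3 have tags in 10 libraries each, while Kcnip2 and Kcnj9 have them in resting replicate 1 only.

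Voltage-gated Na+ channel subunits held 1 resting and 8 depolarized tags over 3 genes. Scn3b, an auxiliary beta subunit, had 0 tags in all 6 resting libraries and 3, 0, 2, 0 and 0 in depolarized replicates 1, 2, 3, 4 and 6. It was at least 1.16-fold higher against a limit of 3 counts over the group (pooled exact binomial test, P = 0.125, adjusted P = 1). Scn3a, a pore subunit, had 1 and 2 tags in depolarized replicates 1 and 2, and Scn2b, another beta subunit, had 1 tag, at rest in replicate 5. Scn3b was no longer called without resting replicate 1, depolarized replicate 1 or depolarized replicate 3, nor within replicate numbers (exact Mantel-Haenszel test, P = 0.306).

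Voltage-gated Ca2+ channels gave few tags in either condition. The pore subunits Cacna1d, of the L type, and Cacna1g and Cacna1h, of the T type, had 4, 4 and 1 tags, 6 at rest and 3 after depolarization in all. The accessory subunits Cacna2d3 and Cacng7 had 4 tags each and Cacnb4 had 1. None of these passed the pooled test.

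The Cl- family was led by Ano8, an anoctamin, with 4 resting and 3 depolarized tags over 5 libraries. The CLC genes Clcn3 and Clcn4 had 3 tags each, all after depolarization, and Clcn2 and Ano4 had 1. The 3 Clcn4 tags fell in 3 different libraries, and its 5′ UTR has an opposite-strand overlap, as do those of Kcna6 and Kcnd3. The 2 TRP channels were Trpc5, with 1 resting and 2 depolarized tags, and Trpm7, with 2 tags, both in depolarized replicate 3.

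Genes that work with these families were counted in the same way, against the same background of 5.21% with more and 4.51% with fewer tags. Of 21 Ca2+-dependent kinases and phosphatases 9 were listed, with 0 called higher and 1 lower (Camkk2) by the pooled test. Of 26 other Ca2+ transport and store proteins 7 were listed, and Homer1, a scaffold that links receptors to Ca2+ stores, was called, with 3 resting and 21 depolarized tags. Of 32 channels outside the symbol rule 10 were listed, with Panx2 called higher and Panx1 lower, and of 26 channel partners and anchors 17 were listed, with Caln1 and Dlg4 called higher. Of 6 subunits of the Na+/K+ pump, which restores the gradients that channels use, 4 were listed, and Atp1b1 was called, with 32 resting and 110 depolarized tags (scaled log2 ratio 1.26; pooled exact binomial test, P = 2.93e-06). Of those 110 tags, 86 lay in depolarized replicate 1, without which the log2 ratio was 0.26 (exact test, P = 0.597). By edgeR its log2 fold change was 0.87 (edgeR, adjusted P = 0.884). Without that library, which was left out after seeing the data, the calls of Camkk2, Panx2, Caln1 and Dlg4 were also lost, while those of Homer1 and Panx1 were not. By edgeR, none of Homer1, Caln1 and Dlg4 was called (adjusted P = 0.596, 0.596 and 0.637).

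Of the markers of neurons, 6 of 8 were among the listed 5′ UTRs, with 168 tags, a summed share of 0.186% to 4.25% at rest and 0.546% to 1.79% after depolarization. Of these, Syt1 and Map2 were called with more tags by the pooled test, Map2 not without depolarized replicate 1, and neither by edgeR (adjusted P = 0.908 and 0.660). The mean level of Syt1 per library went the other way, at 13338 ± 14718 CPM at rest (SD, n = 6) and 9366 ± 7817 CPM after depolarization (SD, n = 5). Of the markers of astrocytes, oligodendrocytes and endothelial cells, 0 of 5, 0 of 5 and 0 of 3 were listed. Of the microglial markers 1 of 4 was listed, with 1 tag, so these tables say little about other cell types in the cultures, and their part in any result was not tested.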

How the data were processed

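eIF4G2 CLIP libraries of resting and depolarized mouse primary cortical neurons were analysed. The authors filtered and collapsed the reads with CLIP Tool Kit (cutadapt is named in the submitters' processing notes), aligned them to mm10 with Rsubread and counted tags with summarizeOverlaps on the 5′ UTR of the longest UCSC transcript per gene. They deposited raw counts per library, not pooled and not normalized. How reads with several matches were treated, and whether strand was used, is not given in the sources used here. Duplicates were collapsed by sequence, so intervals and limits cover counting error only.

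Of 3367 entries, 1 without a gene name (0% of tags) was left out. The fixed design named 12 libraries, of which 11 were distinct, and all 55 pairs of these differed beyond sampling noise (200 draws with the margins held). edgeR 4.0.16 (R 4.3.3) was run with TMM, library sizes over all 5′ UTRs, at least 10 tags and Benjamini-Hochberg adjustment over all 5′ UTRs tested. The pooled test took the sum of a condition's tags, scaled both sums to their mean, rounded them and tested them against 0.5 (pseudocount 0.1, two-sided P below 0.2). DESeq2 1.42.0, exact Mantel-Haenszel tests within replicate numbers, and exact permutation over libraries (scipy 1.17.1, Python 3.11.15) were added. The scripts were checked on simulated data. Resting and depolarized samples of a replicate were pooled after reverse transcription, per the labels, so the numbers were taken to pair the samples. That equal numbers mark the same replicate is an assumption. Deviations of same-numbered libraries correlated at 0.254, 0.180, 0.109, 0.170 and 0.151, and the same-numbered resting library was the best match for depolarized replicates 1, 2 and 4 but not for 3 and 6.

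Of the 63 members, 63 had a 5′ UTR in GENCODE M21. The longest coding transcript was used, which may differ from the counted one. Named genes are Stim2, Kcnj9, members with at least 10 tags, members called by the pooled test, the most tagged of each family and the 15 with the most tags; others are given as counts. The members, families and gene lists were chosen with earlier results of these data known. Results for 4 of the members are not reported here.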

Additional observations from a re-analysis of the deposited data

Results flagged for a closer look

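Among 16 groups of libraries checked for a value far from the others (the members' share, 6 members' levels and the library totals, in each condition), 4 stood apart. The usual rate of 1 in 20 by chance does not hold for counts this sparse from libraries of unequal depth, so no excess is read from this. Resting replicate 1 held 3224 tags, against 928 in the next deepest resting library. Kcna4 reached 2481 CPM in that library from 8 tags, with 0 in the other 5. In depolarized replicate 3, Kcna4 reached 874 CPM from 2 tags, against 191 in the next. Atp2b1 reached 3268 CPM in resting replicate 3 from 1 tag, against 1078 in the next. In that library of 306 tags, a tag is worth far more CPM than in the deep ones.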

How the results depend on the processing

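By the pooled test, leaving out libraries gave 0 to 4 members with more tags and 3 to 6 with fewer, and 98 to 189 and 43 to 163 of all 5′ UTRs. At P below 0.05 the members were 0 and 2 (84 and 41 of all), and at adjusted P below 0.05 they were 0 and 0 (14 and 10). With libraries weighted equally at the scale of an average library they were 0 and 0 (13 and 8). That scale shrinks the counts that enter the test, so its lost calls cannot be read as an effect of the weights. With the replicate block they were 0 and 9 of 60 members (140 and 321 of 3190 5′ UTRs). In replicates 1 to 3 alone they were 1 and 6 of 55 (150 and 147 of 2905), and in replicates 4 to 6 alone 1 and 0 of 29 (44 and 17 of 1181). With TMM sizes 233 of all 5′ UTRs were higher and 90 lower, against 171 and 148. By edgeR, 0 members were called under all 19 alternatives, replicate block included, while 5′ UTRs called higher were 1 with library totals and 0 to 7 without libraries. The highest count came without both libraries of replicate 1, a setting chosen after seeing the data, as was library totals.

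Directions turned when libraries were left out for Kcna4 (pooled, -2.99 to 4.41, the positive values without resting replicate 1), Atp2a2 (edgeR, -0.79 to 0.061) and Kcna1 (edgeR, -1.11 to 0.35). The causes were not tested. The share difference stayed negative under all 18 alternatives, between -0.62 and -0.13 percentage points. For Stim2 the pooled log2 change lay between -5.60 and -0.78 in the 18 alternatives that recompute it. Its call was lost with adjusted P and in replicates 4 to 6 alone. With equal weights the change was -0.93, and the call was lost at the smaller counts of an average library, so this loss says nothing about the weights. By edgeR the log2 change of Stim2 lay between -3.12 and -0.79. The latter came with all 12 libraries, where the 5 Stim2 tags of resting replicate 5 count in both conditions. Depth is a limit: 35 of the 63 members had 3 tags or fewer.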
